A study of Mus musculus with 16 samples.

Results

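The genes of the mitochondrial ribosome were followed in 2 limb muscles, the gastrocnemius of the calf and the triceps of the upper forelimb. Their members were all probe sets whose only annotated gene symbol begins with Mrpl or Mrps and a digit, the symbols of large-subunit and small-subunit mitochondrial ribosomal proteins. The rule found 94 probe sets of 67 genes among the 7729 probe sets of the table. RefSeq lists 78 protein-coding mouse genes with such symbols. Another 2 probe sets with several symbols (Mrpl30 with Gm6238, and Mrpl53 with Ccdc142) were left out.

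The 4 groups were SOD1-G93A gastrocnemius, NTg gastrocnemius, SOD1-G93A triceps and NTg triceps, with 4 arrays each. SOD1-G93A mice carry a transgene for human SOD1 (superoxide dismutase 1) with the G93A substitution and are a model of amyotrophic lateral sclerosis, a disease of motor neurons. NTg mice are non-transgenic. All were female C57BL/6 mice aged 7 weeks, which the series calls presymptomatic, and each genotype is given as 4 mice that yielded both muscles. The sources used here do not give the promoter, copy number or line of the transgene.

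Values are log2 signals of Affymetrix probe sets, groups of short probes for 1 transcript. Array medians lay between 7.10 and 7.26. As a check of the tissue, all 11 fast-fibre genes were measured, and their mean lay between 12.69 and 14.33 on every array. All 10 slow-fibre genes were in the table, and their mean in gastrocnemius averaged 10.69 ± 0.44 for SOD1-G93A and 10.83 ± 0.27 for NTg, against 6.59 ± 1.55 for SOD1-G93A and 5.73 ± 0.77 for NTg in triceps (SD, n = 4 each). In NTg triceps 1 and 2 and SOD1-G93A triceps 2, Ckm, the gene of muscle creatine kinase, lay between 12.76 and 13.02, against 13.84 to 14.51 on the other 5 triceps arrays. Log2 differences and medians that moved by over 1.5 times without these 3 arrays are given with and without them, on the same probe sets. In whole muscle, fewer cells of a type and less RNA per cell cannot be told apart.

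The mitochondrial ribosome sits in the mitochondrial matrix and translates the few proteins that mitochondrial DNA still encodes, all of them subunits of the respiratory chain or of ATP synthase. Its own proteins are encoded in the nucleus, made by cytosolic ribosomes and imported. Part of them descend from bacterial ribosomal proteins, and the rest were added in the mitochondrial lineage. Muscle fibres, above all slow oxidative ones, are rich in mitochondria.

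By these classes 45 of the 67 genes encode large-subunit and 21 small-subunit proteins, and 39 are of bacterial type and 27 specific to mitochondria. Mrps36 belongs to neither subunit. Despite its symbol, its product is a subunit of the 2-oxoglutarate dehydrogenase complex. Mrps18a and Mrps30 also go against their symbols, since their products sit in the large subunit, with which they were counted.

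Nuclear genes for mitochondrial proteins are often described as sharing promoter elements for NRF1, for ETS-family factors such as GABPA, and for YY1. RefSeq promoter windows (GRCm38.p6, 250 bases before to 50 bases after each transcription start) were at hand for 59 of the 67 genes, 65 windows in all. Of the genes that the results below turn on, Mrpl17 had the smallest unadjusted p for genotype over both muscles. Mrps18a and Mrpl14 were called between the muscles with the mouse as a random block, but not as a fixed one. Mrpl11 had probe sets that disagreed. The 4 windows printed here belong to these genes. Each is given 5′ to 3′ on the gene's strand, in lower case. Capitals mark matches on either strand to ETS letters CCGGAAG, NRF1 letters (GCGCA and GCGC with 1 base between) or YY1 letters ATGGCGG.
Mrpl17 (chr7:105811038-105811337, minus strand): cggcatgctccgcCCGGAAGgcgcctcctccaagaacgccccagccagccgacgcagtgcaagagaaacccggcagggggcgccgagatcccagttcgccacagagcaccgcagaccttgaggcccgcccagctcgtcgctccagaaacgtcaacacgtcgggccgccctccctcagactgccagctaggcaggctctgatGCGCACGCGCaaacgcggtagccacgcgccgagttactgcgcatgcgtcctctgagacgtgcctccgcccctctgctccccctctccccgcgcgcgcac
Mrps18a (chr17:46110754-46111053, plus strand): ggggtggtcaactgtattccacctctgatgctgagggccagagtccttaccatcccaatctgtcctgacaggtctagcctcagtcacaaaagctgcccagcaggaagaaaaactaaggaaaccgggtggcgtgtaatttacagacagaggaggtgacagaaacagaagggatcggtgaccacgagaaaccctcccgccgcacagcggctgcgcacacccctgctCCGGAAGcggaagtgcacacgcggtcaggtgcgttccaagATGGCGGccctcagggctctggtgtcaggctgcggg
Mrpl14 (chr17:45686099-45686398, plus strand): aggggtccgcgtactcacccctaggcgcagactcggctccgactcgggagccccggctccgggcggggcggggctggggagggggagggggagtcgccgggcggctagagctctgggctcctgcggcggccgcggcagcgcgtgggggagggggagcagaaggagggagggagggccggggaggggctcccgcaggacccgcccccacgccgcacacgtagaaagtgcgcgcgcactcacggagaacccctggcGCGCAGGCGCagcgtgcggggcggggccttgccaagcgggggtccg
Mrpl11 (chr19:4962056-4962355, plus strand): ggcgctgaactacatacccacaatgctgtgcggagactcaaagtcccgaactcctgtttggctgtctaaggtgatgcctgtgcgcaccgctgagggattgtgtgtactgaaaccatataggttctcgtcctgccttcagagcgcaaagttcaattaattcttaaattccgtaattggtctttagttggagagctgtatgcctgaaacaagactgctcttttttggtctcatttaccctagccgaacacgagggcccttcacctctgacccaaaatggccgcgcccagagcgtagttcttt
The Mrpl17 window held 1 ETS and 1 NRF1 match, the Mrps18a window 1 ETS and 1 YY1 match, and the Mrpl14 window 1 NRF1 match. The Mrpl11 window held none of these letters.

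Over all 65 windows, the ETS letters were found in 22 (33.85%), against 18.7% of 3203 windows of other tested genes and 8.858% of all 32851 windows. The NRF1 letters were found in 12 member windows (18.46%), against 12.11% and 4.603%. The YY1 letters were found in 11 (16.92%), against 9.085% and 4.055%. One of the ETS and NRF1 motifs or the other was present in 30 member windows (46.15%), against 28.35% and 12.57%, and both were present in 4, with 0 overlaps between their matches. The CCAAT letters had the same order with smaller gaps, found in 26 of the 65 member windows, against 37.62% and 37.41%. The GC box GGGCGG was found in 55.38% of member windows, against 64.0% of other tested genes' windows and 35.66% of all windows. The E-box CACGTG was at 7.692%, against 10.8% and 7.15%, and the TATA box TATAAA at 7.692%, against 7.743% and 13.62%. The estrogen-related receptor element TCAAGGTCA had 0 matches in member windows, against 0.3434% and 0.4231%. Genes with several windows count more than once, and a match describes letters, not a bound site.

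**Figure D1:**
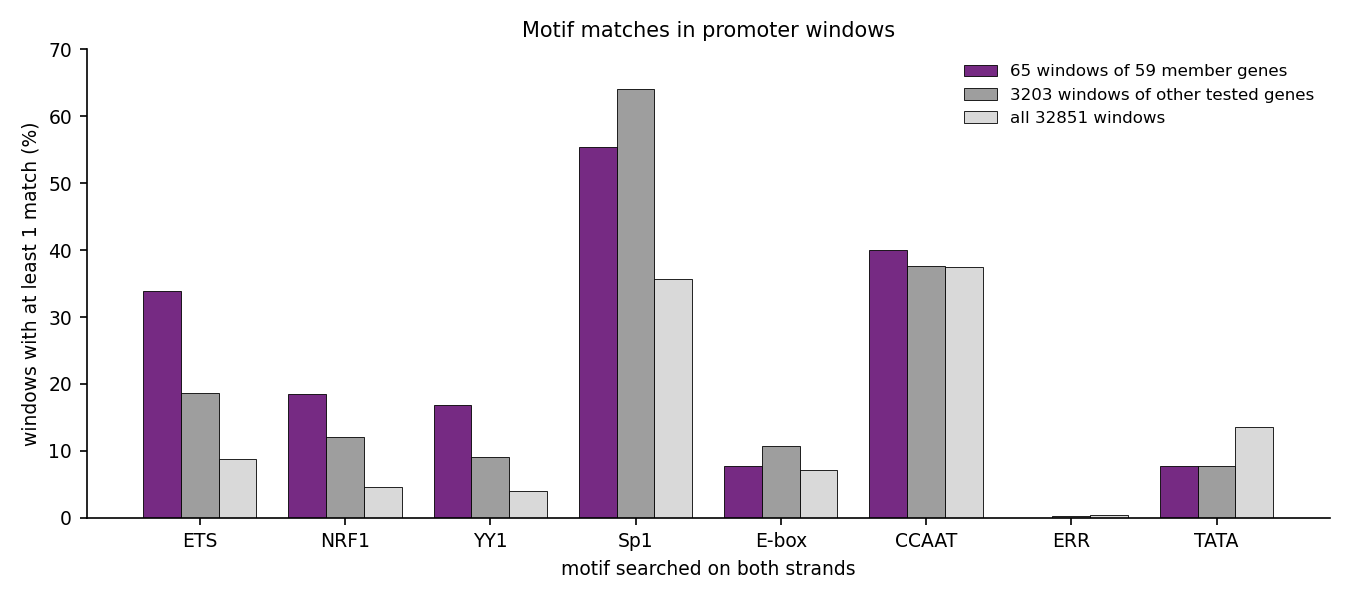
Share of promoter windows with at least 1 match to each motif on either strand (percent, y axis), for 65 windows of 59 member genes (purple), 3203 windows of other tested genes (dark grey) and all 32851 windows (light grey). The ETS, NRF1 and YY1 bars are highest for the members, at 33.85%, 18.46% and 16.92%, and so is the CCAAT bar by a smaller margin, while the GC box (Sp1) bar is highest for the other tested genes, at 64.0%.

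Signals of different probe sets cannot be set against each other as amounts of RNA, and the members show why. Mrpl51, a mitochondria-specific large-subunit gene, averaged 10.37 over the 16 arrays by probe set 1416877_a_at and 5.98 by probe set 1416878_at. The 5 brightest member probe sets were those of Mrpl42 (11.19), Mrpl51, Mrpl23 (9.99), Mrps21 (9.63) and Mrps14 1420489_at (9.28). The 5 dimmest were those of Mrps2 1420845_at (5.14), Mrpl33 1425843_at (5.40), Mrpl1 1423351_at (5.79), Mrps9 (5.87) and Mrpl51 1416878_at. A probe set was tested where its mean over all 16 arrays passed the 40th percentile of the table, a log2 signal of 6.75. By that filter 77 member probe sets of 59 genes were tested and 17 were not. The 8 genes with no tested probe set were Mrpl1, Mrpl19, Mrpl49, Mrpl50, Mrps5, Mrps9, Mrps11 and Mrps25.

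As a whole the tested members kept nearly 1 level. In gastrocnemius their mean was 8.15 ± 0.05 for SOD1-G93A and 8.14 ± 0.05 for NTg, and in triceps 8.09 ± 0.09 for SOD1-G93A and 8.13 ± 0.05 for NTg (SD, n = 4 each). All 16 arrays lay between 7.99 and 8.20, and the ranges of the 4 groups overlapped. The large-subunit mean was 8.17 ± 0.05, 8.16 ± 0.05, 8.10 ± 0.08 and 8.13 ± 0.07 in the same 4 groups. The small-subunit mean was 8.07 ± 0.05, 8.05 ± 0.09, 8.02 ± 0.13 and 8.09 ± 0.04.

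The 3 triceps arrays with low Ckm did not stand out in this mean, at 8.07 to 8.12 against 7.99 to 8.20 on the other 5 triceps arrays. They did in the mean of 70 probe sets of respiratory complexes II to V, at 10.83 to 10.99 against 11.08 to 11.37, and, less far apart, in that of 66 complex I probe sets, at 10.50 to 10.53 against 10.54 to 10.74. The mean of 66 cytosolic ribosomal protein probe sets was 10.69 to 10.86 on the 3 arrays and 10.71 to 10.85 on the other 5.

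**Figure D2:**
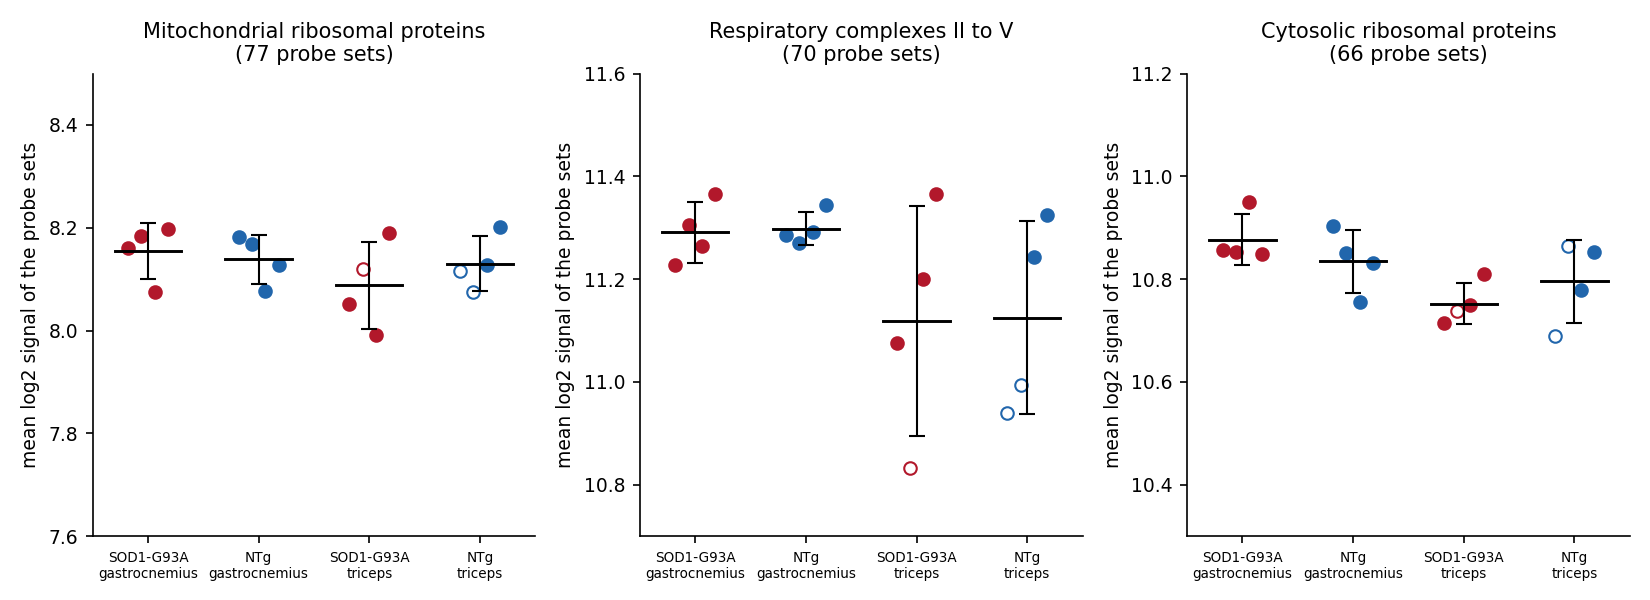
Mean log2 signal per array (y axis, each panel spanning the same range of log2 units) of the tested mitochondrial ribosomal protein probe sets, of respiratory complexes II to V and of cytosolic ribosomal proteins, for SOD1-G93A (red) and NTg (blue) arrays of both muscles. Points are arrays, open points the 3 triceps arrays with low Ckm, lines the group mean and bars 1 SD (n = 4). The members' means lie between 7.99 and 8.20 in all groups, and the open points are low in the middle panel only.

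The first comparison asked whether the SOD1-G93A transgene changes these genes before symptoms. No member passed limma's test in either muscle. Over both muscles 0 of 77 tested members were called at an adjusted p under 0.05, as were 0 of all 4637 tested probe sets (0%), and 0 members had an unadjusted p under 0.05, against 1.83% of all tested probe sets. Of the 77, 38 lay above 0 and 39 below, with a median log2 difference of -0.0027 beside 0.0047 for all tested probe sets, and the extremes were -0.29 and 0.22. With the 3 low-Ckm arrays left out, 28 lay above 0, and the median was -0.032 beside 0.0029. The 95% interval lay within 1.5-fold either way for 73 members (94.8%), against 79.9% of all tested probe sets, and within 2-fold for all 77 tested members. The 17 untested probe sets have no such bound.

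No class of members stood apart from the others over both muscles. The median was -0.0027 for the 55 large-subunit and -0.016 for the 21 small-subunit probe sets, and 0.0051 for the 44 of bacterial type and -0.028 for the 32 specific to mitochondria. Cytosolic ribosomal proteins, complex I and complexes II to V had medians of 0.0070, 0.021 and 0.0078, with 0 called in each. Without the low-Ckm arrays these 3 medians were -0.0012, -0.019 and -0.019, and those of the members' 4 classes -0.030, -0.032, -0.022 and -0.051.

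**Figure D3:**
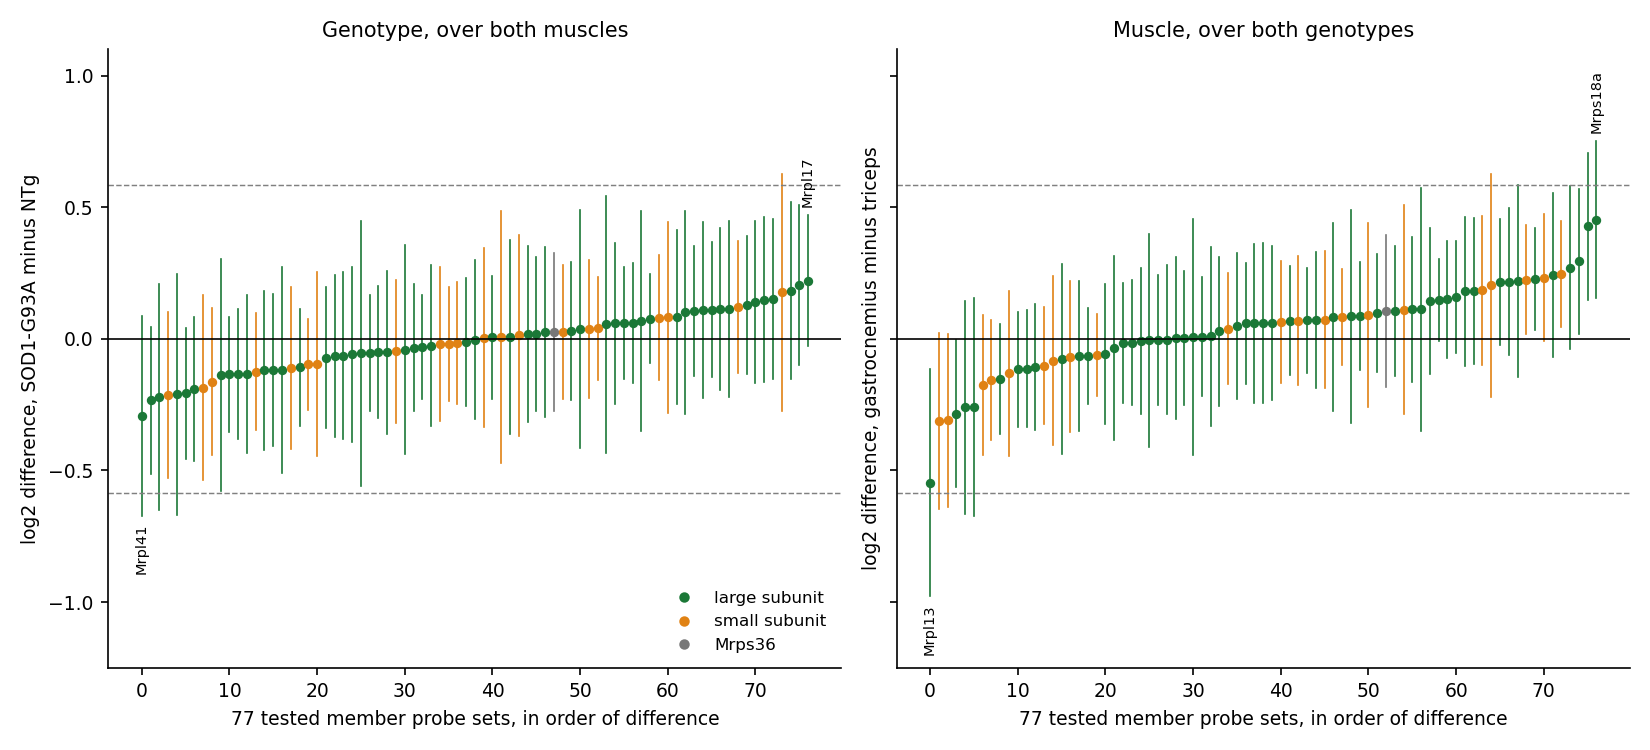
Log2 differences of the 77 tested member probe sets, each panel in its own order: SOD1-G93A minus NTg over both muscles (left) and gastrocnemius minus triceps over both genotypes (right). Points are limma's estimates, vertical lines their 95% intervals, dashed lines 1.5-fold, and colours the subunit. The left panel is centred on 0, with a range of -0.29 to 0.22, and the right one reaches from -0.55 (Mrpl13) to 0.45 (Mrps18a).

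Within the large subunit, Mrpl17 and Mrpl46 were the members of smallest unadjusted p in either direction. Mrpl17, a protein of bacterial type, was at 8.47, 8.57, 8.66 and 8.56 in SOD1-G93A triceps and at 8.42, 7.96, 8.42 and 8.25 in NTg triceps. These groups did not overlap, the lowest SOD1-G93A array lying just above the highest NTg one. In gastrocnemius its values were 8.87, 8.65, 8.38 and 8.63 in SOD1-G93A and 8.72, 8.54, 8.15 and 8.56 in NTg, and there the groups overlapped. The difference was 0.30 ± 0.15 (SE) in triceps and 0.22 ± 0.12 over both muscles, with limma's adjusted p at 0.994 and 0.997.

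Mrpl46, a mitochondria-specific protein, was at 7.38, 7.64, 7.12 and 7.26 in SOD1-G93A gastrocnemius and at 7.40, 7.50, 7.46 and 7.65 in NTg gastrocnemius. In triceps it was at 7.00, 6.88, 7.38 and 7.39 in SOD1-G93A and at 7.32, 7.58, 7.43 and 7.58 in NTg. The groups overlapped in each muscle, but the means of a mouse's muscles were lower in all 4 SOD1-G93A mice than in any NTg mouse. It was the 1 member of which this held, against 0.539% of all tested probe sets lower without overlap and 1.12% in either direction. The difference over both muscles was -0.23 ± 0.13 (SE), with limma's adjusted p at 0.997.

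Next by unadjusted p over both muscles came Mrpl22, a lining protein of the peptide exit tunnel, at -0.21 ± 0.12 (SE), and Mrpl41, specific to mitochondria, at -0.29 ± 0.18 by probe set 1428588_a_at. Mrpl54, also specific to mitochondria, differed by 0.20 ± 0.14, and Mrpl15, of bacterial type, by 0.18 by probe set 1425189_a_at. Without the 3 low-Ckm arrays the Mrpl15 value turned to -0.014. Their limma adjusted p was 0.997 in each case, and none passed the test. With all arrays, the other tested Mrpl41 probe set, 1428589_at, gave -0.0027. The other tested Mrpl15 probe sets gave 0.054, 0.019 and -0.032, so the probe sets of both genes disagreed.

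In gastrocnemius alone, 0 of 77 members were called by limma and 1 had an unadjusted p under 0.05, against 2.22% of all tested probe sets. The members' median was -0.014 beside -0.012 for all tested probe sets. The groups did not overlap for 2 members, both higher in SOD1-G93A, against 1.38% of all tested probe sets higher without overlap and 2.7% in either direction. These were Mrpl10 and Mrpl11, whose products belong to the stalk base and stalk of the large subunit, where translation factors dock.

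Mrpl10 was at 7.59, 7.49, 7.45 and 7.73 in SOD1-G93A gastrocnemius and at 7.43, 7.14, 7.27 and 7.37 in NTg gastrocnemius. The lowest SOD1-G93A value stood just above the highest NTg value. The difference was 0.27 ± 0.16 (SE) with limma's adjusted p at 0.999, and in triceps it was -0.0093, or -0.17 without the low-Ckm arrays. Mrpl12, the stalk protein itself, averaged 8.38 ± 0.09 for SOD1-G93A and 8.32 ± 0.10 for NTg in gastrocnemius (SD, n = 4 each), with overlap, and differed by 0.058 ± 0.17 (SE).

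Mrpl11 was read by 3 tested probe sets, which did not move together. Probe set 1437131_x_at was at 7.69, 8.16, 8.81 and 8.13 in SOD1-G93A gastrocnemius and at 7.45, 7.58, 7.50 and 7.58 in NTg gastrocnemius. In triceps it was at 7.35, 7.80, 7.85 and 7.82 in SOD1-G93A and at 7.60, 8.69, 8.51 and 7.89 in NTg. The groups lay apart in gastrocnemius, with SOD1-G93A higher and far more spread, and overlapped in triceps, where the SOD1-G93A mean was the lower one.

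For that probe set the difference was 0.67 ± 0.24 (SE) in gastrocnemius, with an unadjusted p of 0.0127 and limma's adjusted p at 0.999. In triceps it was -0.47 ± 0.24, with limma's adjusted p at 0.994. The difference between the 2 genotype effects was 1.14 ± 0.34, with a 95% interval from 0.42 to 1.86, an unadjusted p of 0.00377 and limma's adjusted p at 0.999. It was the highest such value among all 4637 tested probe sets, whose lowest was -2.08, though a cytosolic ribosomal protein probe set also reached 1.14. It was the 1 member with an unadjusted p under 0.05 there, against 1.85% of all tested probe sets. Leaving out 1 array at a time gave 0.94 to 1.33.

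The other probe sets of Mrpl11 did not show it. Probe set 1417918_at was at 8.16, 8.46, 7.77 and 8.59 in SOD1-G93A gastrocnemius and at 8.49, 8.32, 8.40 and 7.82 in NTg gastrocnemius, and its difference of effects was 0.023 ± 0.27 (SE). Probe set 1437839_x_at gave 0.25 ± 0.44, with a 95% interval from -0.67 to 1.18. The ending _x_at marks, in the array maker's naming, probes that can also match other transcripts. Which transcripts 1437131_x_at reads was not tested. The deviations of 1437131_x_at from its group means correlated at 0.062 with those of 1417918_at and at 0.15 with those of 1437839_x_at over the 16 arrays, given as a description.

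**Figure D4:**
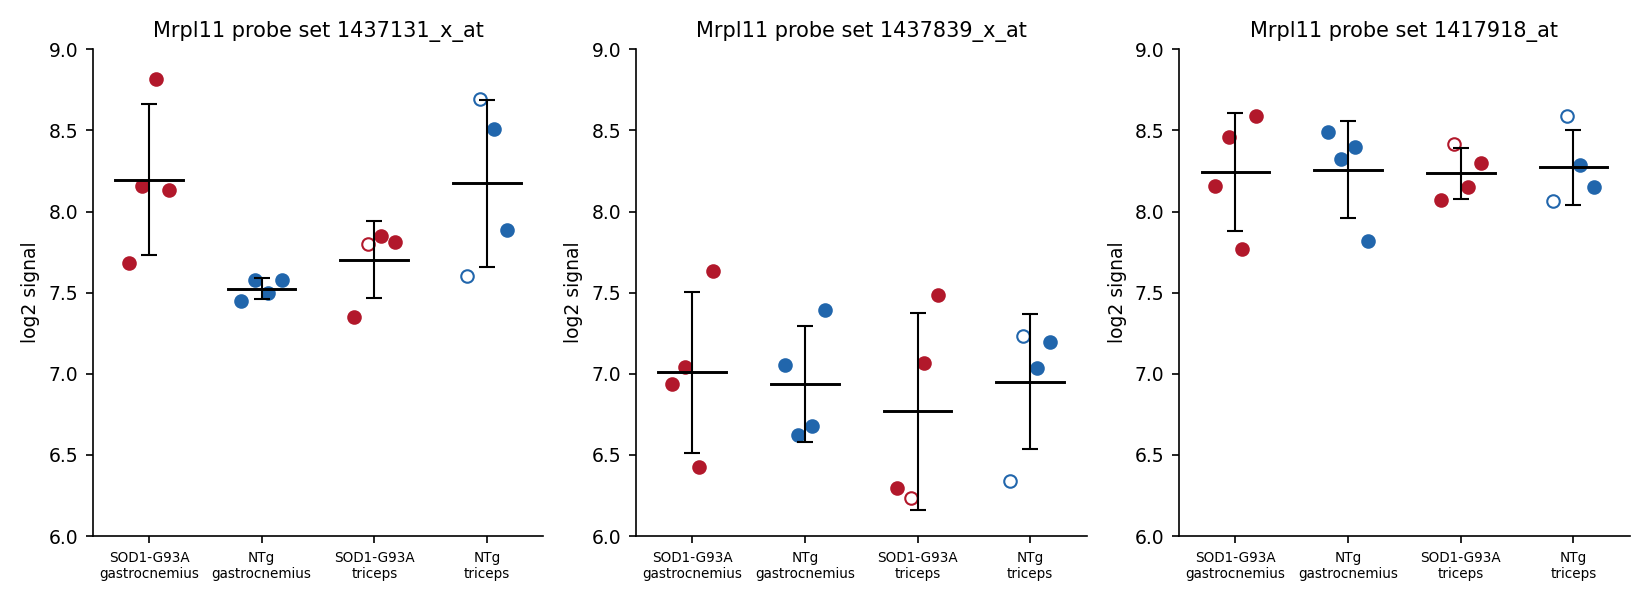
Log2 signal (y axis) of the 3 tested Mrpl11 probe sets on each array, SOD1-G93A in red and NTg in blue, gastrocnemius left of triceps. Points are arrays, open points the 3 triceps arrays with low Ckm, lines the group mean and bars 1 SD (n = 4). The left panel shows the probe set whose genotype difference was 0.67 in gastrocnemius and -0.47 in triceps, which the other panels do not show.

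Among small-subunit genes in gastrocnemius, Mrps24 1450865_s_at was at 8.40, 8.31, 8.16 and 8.39 in SOD1-G93A and at 7.96, 8.27, 8.26 and 7.55 in NTg. The groups overlapped and the NTg arrays were more spread. The difference was 0.31 ± 0.15 (SE), with limma's adjusted p at 0.999. Mrps14 1420488_at, with a mean of 6.85 over all arrays, differed by 0.47 ± 0.27. The brighter Mrps14 probe set, 1420489_at, did not show it, averaging 9.24 in SOD1-G93A and 9.25 in NTg gastrocnemius. Mrps2 1420846_at differed by -0.23 ± 0.17. Mrpl18, whose bacterial relative binds 5S rRNA, differed by -0.40 ± 0.27.

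In triceps alone, limma called 0 of 77 members, and 0 had an unadjusted p under 0.05, against 2.54% of all tested probe sets. The median was -0.048 beside 0.021 for all tested probe sets, and 46 of 77 members lay below 0. This median stood at -0.074 to -0.0043 when arrays were left out in turn. Without the 3 low-Ckm arrays it was -0.069, beside 0.015 for all tested probe sets. Then 2 of the 77 members had an unadjusted p under 0.05, against 170 of all 4637 tested probe sets. These 2 were Mrps14 1420489_at (-0.30) and Mrpl24 (-0.36), with limma's adjusted p at 0.997. Mrpl17 was the 1 member without overlap, against 0.453% of all tested probe sets higher without overlap and 0.949% in either direction. The other members of small p were Mrps26, a mitochondria-specific small-subunit protein, at -0.35 ± 0.19 (SE), Mrpl42 at 0.33 ± 0.19 and Mrpl45, which faces the inner membrane, at 0.32 ± 0.19, or 0.14 without the low-Ckm arrays.

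Mrpl42, the brightest member, rested on the low-Ckm arrays there. It was at 11.31, 11.16, 11.18 and 11.33 in SOD1-G93A triceps and at 10.86, 10.17, 11.28 and 11.37 in NTg triceps. Only NTg triceps 1 and 2, which are among the low-Ckm arrays, lay below the rest. Without the 3 low-Ckm arrays its triceps difference was -0.0487, and without NTg triceps 2 alone it was 0.0765.

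The other members ranked by the difference between the 2 genotype effects had limma's adjusted p at 0.999 and did not pass the test. Among them was Mrpl35, of bacterial type, at -0.31 ± 0.23 (SE).

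The second comparison set gastrocnemius against triceps, 2 muscles that differed here in slow-fibre genes. For all tested probe sets limma called 171 over both genotypes, 98 higher and 73 lower in gastrocnemius (3.69%), and 0 of the 77 members were among them. An unadjusted p under 0.05 was reached by 6 members higher and 2 lower, against 11.4% and 11% of all tested probe sets (22.3% in either direction). The members' median log2 difference was 0.060 beside -0.0042 for all tested probe sets, with 49 of 77 above 0. Without the 3 low-Ckm arrays, 3 members had an unadjusted p under 0.05, against 638 of all 4637 tested probe sets, and the members' median was 0.016. With each array centred on its median it was 0.10 beside 0.036 for all tested probe sets.

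For comparison, complexes II to V of the respiratory chain had a median of 0.22, with 60 of 70 probe sets above 0 and 1 called, complex I a median of 0.081 and cytosolic ribosomal proteins one of 0.089, with 2 called. The difference between these lists and the members was not tested. Mitochondria-specific members had a median of 0.071, with 25 of 32 above 0, and members of bacterial type one of 0.018, with 23 of 44 above 0. The large-subunit median was 0.059 and the small-subunit median 0.063. Without the 3 low-Ckm arrays complexes II to V had a median of 0.046, complex I one of 0.016 and cytosolic ribosomal proteins one of 0.065, with 1, 0 and 0 called. That of members of bacterial type was then -0.017, of mitochondria-specific members 0.047, of the large subunit 0.016 and of the small subunit 0.049.

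Since both muscles came from the same mice, the mouse was also fitted as a block, and this moved the calls. With the mouse as a random block, limma called 331 probe sets in all (7.14%), and with it 2 of the 77 members, Mrpl14 and Mrps18a, both higher in gastrocnemius. With the mouse as a fixed block it called 318 (6.86%) and 1 member, Mrpl13, which was lower.

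Mrps18a, a large-subunit protein despite its symbol, was classed here as specific to mitochondria. It was at 9.06, 8.82, 8.50 and 8.73 in SOD1-G93A gastrocnemius and at 8.98, 8.91, 8.38 and 8.62 in NTg gastrocnemius. In triceps it was at 8.76, 8.05, 8.44 and 8.28 in SOD1-G93A and at 8.26, 7.68, 8.57 and 8.33 in NTg. Gastrocnemius was the higher muscle in 7 of 8 mice, with overlap between the muscles as groups, and the lowest triceps values came from replicate 2 of both genotypes. The difference was 0.45 ± 0.14 (SE), or 1.37-fold, with limma's adjusted p at 0.0867 without a block, 0.0458 with the mouse as a random block and 0.0668 as a fixed one.

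Mrpl14, a bacterial-type protein on the large subunit's face toward the small subunit, was at 8.43, 8.70, 8.51 and 8.77 in SOD1-G93A gastrocnemius and at 8.79, 8.48, 8.41 and 8.68 in NTg gastrocnemius. In triceps it was at 8.09, 7.83, 8.50 and 8.46 in SOD1-G93A and at 8.29, 7.62, 8.48 and 8.07 in NTg. Again 7 of 8 mice were higher in gastrocnemius, and the muscles overlapped as groups. The difference was 0.43 ± 0.13 (SE), or 1.34-fold, with limma's adjusted p at 0.0844 without a block, 0.0419 with the mouse as a random block and 0.0552 as a fixed one.

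Both values leaned on the same arrays. Without the 3 low-Ckm triceps arrays the difference was 0.28 for Mrps18a and 0.28 for Mrpl14, with limma's adjusted p at 0.359 and 0.280. Without NTg triceps 3 alone, where both genes were highest among the NTg triceps arrays, the differences were 0.51 and 0.49, and limma called both without a block, at adjusted p of 0.0423 and 0.0391. Besides the slow-fibre genes, markers of Schwann cells, the sheath cells of nerve, moved with the muscle: 2 of 6 were in the table (Mbp and Pmp22, both above the filter). Their mean averaged 8.93 ± 0.72 (7.90 to 9.54) for SOD1-G93A and 9.20 ± 0.15 (8.98 to 9.34) for NTg in gastrocnemius, against 7.42 ± 0.18 (7.16 to 7.57) for SOD1-G93A and 7.11 ± 0.35 (6.83 to 7.59) for NTg in triceps (SD, n = 4 each). Their part in either gene's result was not tested.

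Mrpl13, a bacterial-type large-subunit gene, was lower in gastrocnemius by probe set 1460354_a_at. It was at 7.02, 6.97, 6.85 and 7.79 in SOD1-G93A gastrocnemius and at 7.16, 7.88, 7.25 and 7.23 in NTg gastrocnemius. In triceps it was at 7.71, 8.21, 7.08 and 7.85 in SOD1-G93A and at 8.05, 8.60, 7.68 and 7.34 in NTg. Every one of the 8 mice had the lower value in gastrocnemius, while the muscles overlapped as groups.

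The Mrpl13 difference was -0.55 ± 0.20 (SE), with limma's adjusted p at 0.139 without a block, 0.0682 with the mouse as a random block and 0.0449 as a fixed one. Without the 3 low-Ckm arrays it was -0.26. The second tested probe set, 1424204_at, gave 0.060, or 0.025 without them, so the gene's own probe sets disagreed.

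Over all members, 1 was higher in gastrocnemius in 8 of 8 mice and 2 were lower in 8 of 8, against 5.93% and 4.4% of all tested probe sets. The higher one was Mrps17, a bacterial-type small-subunit gene, at 0.25 ± 0.10 (SE) with limma's adjusted p at 0.147. The lower ones were Mrpl13 1460354_a_at and Mrps24 1438563_s_at, which differed by -0.31 ± 0.16, or -0.087 without the low-Ckm arrays. The other tested Mrps24 probe set, 1450865_s_at, differed by 0.063 and was higher in gastrocnemius in 5 of 8 mice. The muscles did not overlap as groups of 8 arrays for 0 members, against 1.64% of all tested probe sets.

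**Figure D5:**
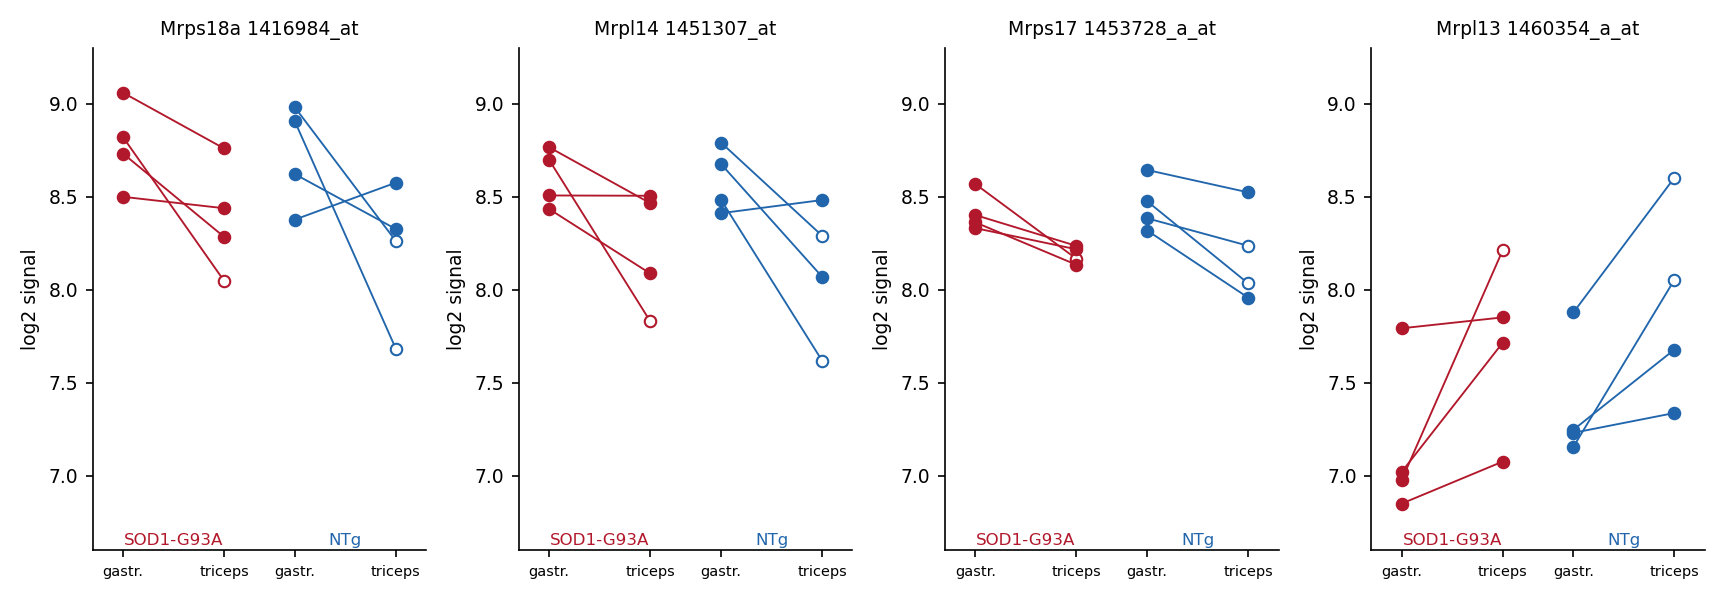
Log2 signal (y axis) of Mrps18a, Mrpl14, Mrps17 and Mrpl13 1460354_a_at in gastrocnemius and triceps of each mouse, SOD1-G93A in red left of NTg in blue. Each line joins both muscles of 1 mouse, and open points are the 3 triceps arrays with low Ckm. Mrps18a and Mrpl14 are higher in gastrocnemius in 7 of 8 mice, Mrps17 in 8 of 8, and Mrpl13 is lower in 8 of 8.

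The remaining members with an unadjusted p under 0.05 over both genotypes were Mrpl2, next to the peptidyl transferase centre, at 0.23 ± 0.09 (SE), Mrps34, specific to mitochondria, at 0.22 ± 0.10, Mrpl41 1428589_at at 0.29 ± 0.13 and Mrpl3 at -0.28 ± 0.13. Limma's adjusted p was 0.161, 0.193, 0.200 and 0.216. Without the low-Ckm arrays Mrpl2 was at 0.11 and Mrpl41 1428589_at at 0.15. Mrps15 1456109_a_at, of bacterial type, came next among the lower ones at -0.31 ± 0.16, or -0.15 without these arrays, with limma's adjusted p at 0.242. Of the 6 higher ones, 4 lie on chromosome 17 (Mrpl14, Mrps18a, Mrpl2 and Mrps34), where 7 of the 77 tested members lie, a grouping seen after the values. The matching share was not counted for all tested probe sets of that chromosome.

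Within SOD1-G93A mice, limma called 0 members for the muscles and 48 of all tested probe sets (1.04%), and 2 members had an unadjusted p under 0.05, against 11.2%. These were Mrpl10, at 0.35 ± 0.16 (SE), and Mrpl41 1428589_at, at 0.40 ± 0.19, with limma's adjusted p at 0.413 and 0.422. Without the 3 low-Ckm arrays, of which 1 is from these mice, the Mrpl41 1428589_at value was 0.25. Then 5 of the 77 members had an unadjusted p under 0.05, against 576 of all 4637 tested probe sets. Mrpl35 differed by -0.26 ± 0.16. Mrpl10 and Mrps17 were higher without overlap, against 4.27% of all tested probe sets (8.3% in either direction). Mrpl10 was at 7.41, 7.28, 7.17 and 7.00 in SOD1-G93A triceps, below the 7.45 to 7.73 of SOD1-G93A gastrocnemius.

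Within NTg mice, limma called 0 members and 57 of all tested probe sets (1.23%), and 3 members had an unadjusted p under 0.05, against 13%. These were Mrps18a at 0.51, Mrpl14 at 0.48 and Mrpl11 1437131_x_at at -0.65, with limma's adjusted p between 0.272 and 0.296. Without the low-Ckm arrays Mrps18a was at 0.27 and Mrpl14 at 0.31. Mrps15 1456109_a_at differed by -0.45 ± 0.22, or -0.24 without these arrays, with limma's adjusted p at 0.394. Mrpl11 1437131_x_at and Mrps14 1420489_at were lower without overlap, against 2.83% of all tested probe sets (6.69% in either direction). Mrps14 1420489_at was at 9.25, 9.28, 9.21 and 9.27 in NTg gastrocnemius and at 9.41, 9.32, 9.42 and 9.43 in NTg triceps, a separation with little spread on either side. The second Mrps14 probe set, 1420488_at, did not separate the muscles, at 6.67 ± 0.44 in NTg gastrocnemius and 6.85 ± 0.20 in NTg triceps (SD, n = 4 each).

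The spread and covariation of the members within groups were also measured. Their median within-group SD was 0.25, against 0.28 for all tested probe sets. Deviations from the group means correlated with a median r of 0.052 over 2902 pairs of members from different genes, beside 0.0023 for all tested probe sets, 0.19 for complex I and 0.40 for complexes II to V. These correlations run over the same 16 arrays and share their scaling, and they are given as a description.

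The same was done for probe sets of 1 member gene. The 13 genes with several tested probe sets (Mrpl11, Mrpl13, Mrpl15, Mrpl28, Mrpl39, Mrpl41, Mrpl44, Mrpl48, Mrpl52, Mrps14, Mrps15, Mrps23 and Mrps24) gave 24 pairs with a median r of 0.13, against 0.24 for all tested probe sets, 0.33 for cytosolic ribosomal proteins and 0.63 for complexes II to V. Only 3 pairs were above 0.5, among them both Mrps23 probe sets (0.55), and 9 were below 0, down to -0.63 for Mrps14. The probe sets of a pair had the same sign of genotype difference in 12 of 24 pairs and of muscle difference in 11.

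Other genes of mitochondrial translation were taken from 4 lists, of which 31 genes were in the table and 21 were tested by 22 probe sets. The lists held ribosomal proteins under other symbols together with Slirp, translation factors, assembly factors, and tRNA synthetases that act in mitochondria, with Gars and Kars among them. Limma called 0 of them for genotype over both muscles, with a median of 0.0065, and 0 for the muscles, with a median of -0.074. In these comparisons 0 and 1 had an unadjusted p under 0.05, against 1.83% and 22.3% of all tested probe sets. Without the low-Ckm arrays these medians were 0.012 and -0.028. Ptcd3, a small-subunit protein, differed by -0.26 ± 0.14 (SE) between the genotypes. Dap3, the small-subunit protein that binds GTP, differed by -0.28 ± 0.12 between the muscles, and Gadd45gip1, a large-subunit protein, by 0.20 ± 0.12. Qrsl1, which acts in charging mitochondrial glutamine tRNA, differed by -0.32 ± 0.21 between the muscles, or 0.063 without these arrays.

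Genes of mitochondrial DNA maintenance and transcription had a median of -0.033 for genotype and -0.13 for the muscles. Between the muscles 7 of 8 probe sets lay below 0, against 2365 of all 4637 tested probe sets. Of the 8, 2 had an unadjusted p under 0.05, against 22.3% of all tested probe sets. These were Tfam, which packages mitochondrial DNA and starts its transcription, at -0.45 ± 0.19 (SE), or -0.26 without the low-Ckm arrays, and Tfb2m, another initiation factor of that transcription, at -0.29 ± 0.13, with limma's adjusted p at 0.166 and 0.197. Regulators of mitochondrial biogenesis had medians of -0.12 for genotype and -0.056 for the muscles, with 0 called in both. Without the low-Ckm arrays these 4 medians were 0.042, -0.017, -0.075 and 0.057. Of the 8 maintenance and transcription probe sets, 4 then lay above 0 between the muscles. An unadjusted p under 0.05 was then reached by 1 of them, against 638 of all 4637 tested probe sets. Yy1, whose motif was searched above, differed by -0.30 ± 0.24 between the genotypes and -0.24 ± 0.22 between the muscles, where the sign turned to 0.12 without the low-Ckm arrays.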

How the data were processed

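Total RNA of 16 muscle samples was hybridised to Affymetrix mouse arrays. In the deposited table each probe set has a log2 value for every array. The submitters' processing notes name MAS5 and no version. The sources used here give neither the scaling target nor the rule behind the choice of 7729 probe sets, and the base of the logarithm was read from the values (-0.77 to 14.81). Values were used as deposited. The number of arrays limits the precision.

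Symbols came from the platform annotation: 7053 probe sets had a single symbol, 330 several and 346 none. Tests used limma 3.58.1 in R 4.3.3 (lmFit on a mean per group, eBayes with an intensity trend) on the 4637 probe sets above the filter, with Benjamini-Hochberg adjustment over all of them and a call at an adjusted p under 0.05. Every genotype difference subtracts NTg from SOD1-G93A, and every muscle difference, like the difference of effects, subtracts triceps from gastrocnemius. The p-values of the main fit measure the spread between the mice of a group. For the muscles and for the difference of effects, that fit ignores that both muscles came from the same mouse. Only the values given with a mouse block take this into account. The mouse was a random block (consensus correlation 0.18) for genotype over both muscles. The design text gives 4 mice per genotype for both muscles, and a number shared by both muscles of a genotype was read as 1 mouse. Within a genotype, deviations of same-numbered muscles correlated at 0.14 to 0.39, in 8 of 8 mice best with their own number. Same-numbered arrays of the 2 genotypes, from different mice, correlated at 0.00065 to 0.22 in gastrocnemius and 0.034 to 0.37 in triceps. The correlations therefore cannot tell a shared mouse from anything else that arrays of a number share. No label pairs mice between genotypes. The script was tested on simulated data.

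Members, gene lists and tests were chosen with earlier results of these data known. Members named are, per comparison, those called or else the 3 of smallest p per direction, the 5 brightest and dimmest, those with several probe sets, the stalk genes, and Mrps18a and Mrps30. Of Mrps30, only its class is given in the results, and its genotype difference over both muscles was -0.12 ± 0.14 (SE). For the lists, those named come from the 2 of smallest p in each. Values of 2 other members (Mrpl2 and Mrps34) and the chromosome count were added after they were seen. Promoter windows were searched for exact letters on both strands.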

Additional observations from a re-analysis of the deposited data

Results flagged for a closer look

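In 104 groups of 4 arrays (24 named member probe sets and the members' mean and median, each in 4 groups), 5 held 1 array farther from the other 3 than Dixon's 95% critical value allows, and chance flags about 5% of such groups. Mrpl11 1437131_x_at was at 7.35 in SOD1-G93A triceps 1, against 7.80 to 7.85 in the other 3. Mrpl41 1428589_at was at 8.35 in SOD1-G93A gastrocnemius 1, where the others lay between 8.42 and 8.43, so the gap is large only beside their narrow spread. Mrpl13 1460354_a_at was at 7.88 in NTg gastrocnemius 2, against 7.16 to 7.25 in the others. Mrpl3 was flagged in both NTg muscles, at 6.95 in NTg gastrocnemius 3, against 7.29 to 7.35, and at 7.75 in NTg triceps 4, against 7.29 to 7.35.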

How the results depend on the processing

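The alternatives were quantile normalization, centring on array medians, no filter on dim probe sets or one at the 60th percentile, no intensity trend, array weights, 1 probe set per gene, replicate blocks, leaving out the 3 low-Ckm arrays, and leaving out each array. Under all of them limma called 0 members and 0 probe sets in the 4 genotype comparisons. Every member median moved by less than 0.0936, the SD between replicate arrays of the members' median signal. That bound is wider than the median differences themselves, so it does not show that their size or sign held. Without the low-Ckm arrays the members' median for the muscles in NTg mice went from 0.047 to -0.024. For the muscles over both genotypes, 2 members were called with the replicate number as a replicate block, 2 with the mouse as a random and 1 as a fixed replicate block, and 0 to 2 when single arrays were left out. Probe sets called there were 408, 331 and 318 under these blocks, 108 without the low-Ckm arrays (103 with the probe sets of the full data kept, an alternative chosen after seeing the data), and 95 to 273 with 1 array left out. They were 95 and 113 without SOD1-G93A gastrocnemius 3 and 4, 103 without NTg gastrocnemius 1 and also without 2, 112 and 100 without SOD1-G93A triceps 1 and 2, and 273 and 258 without NTg triceps 3 and 4. In NTg mice they were 91 with the number block, 88 with the fixed mouse block and 35 to 70 with 1 array left out (37 and 35 without NTg gastrocnemius 1 and 2). In SOD1-G93A mice they were 22 to 61 (28, 26 and 22 without SOD1-G93A gastrocnemius 1, 2 and 3, and 27 and 24 without SOD1-G93A triceps 1 and 2). Deviations of same-numbered arrays of the 2 genotypes correlated at 0.00065 to 0.22 in gastrocnemius and 0.034 to 0.37 in triceps. For numbers 2 to 4 the triceps values, 0.32 to 0.37, lay within the 0.14 to 0.39 of same-numbered muscles of a genotype. The number was not taken to pair mice across genotypes because no label does so. The blocks changed no other call of a named gene than those of Mrpl14, Mrps18a and Mrpl13. Without the low-Ckm arrays the sign turned for Mrpl42 (difference of effects 0.022, triceps -0.0487, muscles in NTg -0.012), Mrpl15 1425189_a_at (-0.014) and, of the listed genes, Gfm1 (-0.021) Mtres1 (0.063) and, with the probe sets kept, Yy1 (0.12) and Qrsl1 (0.063) for the muscles and Pdf (-0.046) for genotype. Array weights turned Mrpl11 1417918_at (difference of effects -0.0014) and Pdf (-0.030). With 1 array left out, Afg3l2 spanned -0.21 to 0.0058, Pdf -0.0081 to 0.17 and Mrpl11 1417918_at -0.12 to 0.18. The causes were not tested. None of these values had passed the test.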
